A study of Mus musculus with 6 samples.

Results

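Iron and copper handling was followed through 9 genes: Cp, Slc40a1, Tfrc, Slc11a2, Fth1, Ftl1, Ireb2, Aco1 and Hmox1. The cells were TC-1/A9, a line of mouse tumour cells with C57BL/6 background. The set was chosen by the log2 differences between treated and untreated cells on these same arrays, in which ceruloplasmin (Cp) was among the steepest decreases, and was filled up by function. The differences of the 9 genes are therefore a description and are given without p-values, and where a count of them past a threshold is printed it supports nothing about them. All 9 had a named probe that was detected on at least 1 array, of 9192 such genes in all, and they carried 15 of the 17445 probes kept.

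The treated cells (DAC/TSA) had grown for 48 h with 3 μM 5-aza-2′-deoxycytidine (DAC), an inhibitor of DNA methyltransferases, and for a further 24 h with 30 ng/ml trichostatin A (TSA), an inhibitor of histone deacetylases. Untreated cells were given neither agent, and no vehicle is named for them. Each group held 3 cultures of this 1 line, described as biological replicates, with 1 Illumina Mouse WG-6 bead array each. DAC and TSA were combined in every treated culture, so their effects cannot be told apart.

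Levels are given as log2 signals after quantile normalisation of the 6 arrays, where 1 unit is a doubling. The arrays detected between 15008 and 15783 probes in DAC/TSA cells and between 14704 and 14802 in untreated cells. A signal counted as detected from 5.73 to 5.84 log2 upwards, depending on the array, and the top of the scale was 15.11. Epithelial markers, of which 5 of 7 had a named probe, summed to linear signals of 2128 to 2227 in DAC/TSA cells and 266 to 293 in untreated cells, with no named probe kept for Epcam and Cdh1. Mesenchymal markers, 7 of 8 without Col1a2, summed to 9952 to 10861 in DAC/TSA cells and 19504 to 20268 in untreated cells. These 7 did not move as a block. By the fit used below 5 were lower, 1 was higher and 1 was not past the threshold, and 2 were undetected in DAC/TSA cells. Their median log2 difference was -0.57, and that of Acta2, which is on this list, was -2.70. A linear sum is weighted to the brightest markers. An array of bulk RNA cannot tell fewer expressing cells from less RNA per cell.

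Cells take up transferrin-bound iron through the transferrin receptor, and divalent metal transporter 1 carries the reduced metal out of the endosome. Ferritin stores iron, ferroportin exports it, and a copper-containing ferroxidase such as ceruloplasmin oxidises the exported iron so that transferrin can bind it. The iron regulatory proteins IRP1 and IRP2 bind stem-loops in several of these transcripts when iron is scarce, which protects the transferrin receptor mRNA and holds back ferritin translation. Heme oxygenase 1 releases iron from heme.

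The sequence upstream of Cp is shown beside that of the ferritin and transferrin receptor genes because DAC lowers methylation at CpG sites and these windows differ in CpG number. Methylation was not measured on these arrays, and a link between CpG number and the differences was not tested. RefSeq windows (GRCm38.p6) were at hand for 6 of the 9 genes, and none for Slc40a1, Slc11a2 and Hmox1. Each window is taken as the 250 bases before a transcription start. All windows printed here lie on the plus strand, run 5′ to 3′, and have their CpG sites in capitals.
Cp chr3:19956999-19957248: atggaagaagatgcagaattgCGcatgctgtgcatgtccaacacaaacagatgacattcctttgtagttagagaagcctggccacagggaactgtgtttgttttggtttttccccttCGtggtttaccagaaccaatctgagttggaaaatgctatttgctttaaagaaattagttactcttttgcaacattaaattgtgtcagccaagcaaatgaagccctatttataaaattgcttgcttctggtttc
Fth1 chr19:9982396-9982645: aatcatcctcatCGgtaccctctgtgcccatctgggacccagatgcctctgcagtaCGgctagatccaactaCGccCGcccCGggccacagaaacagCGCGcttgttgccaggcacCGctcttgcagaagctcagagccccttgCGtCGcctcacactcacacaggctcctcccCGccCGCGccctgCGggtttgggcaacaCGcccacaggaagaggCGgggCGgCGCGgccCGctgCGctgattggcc
Tfrc chr16:32608872-32609121: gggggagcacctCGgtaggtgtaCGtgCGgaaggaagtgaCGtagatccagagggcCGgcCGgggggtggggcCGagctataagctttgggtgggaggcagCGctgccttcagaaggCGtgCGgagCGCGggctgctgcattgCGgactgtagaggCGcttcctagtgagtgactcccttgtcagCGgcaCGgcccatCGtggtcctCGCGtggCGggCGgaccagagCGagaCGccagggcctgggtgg
Each of the 2 annotated starts of Cp had 2 CpG sites in its window, a number that 29.0% of the 32851 mouse windows did not exceed. The median window had 6. The printed Fth1 window had 21 sites and the window of the other Fth1 start had 3, while the Tfrc windows had 25 and, as printed, 23. Ireb2, Ftl1 and Aco1 had 24, 17 and 10 sites.

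Cp, the plasma ferroxidase that carries most of the circulating copper, showed the steepest difference of the 9 genes and was lower in treated cells. Its brighter probe (ILMN_2520239) read 5.97, 5.98 and 5.93 log2 on the DAC/TSA arrays, against 8.90, 8.98 and 9.03 log2 on the untreated arrays. The deposited linear signals were 61.9, 71.7 and 60.6 in DAC/TSA cells and 378, 529 and 562 in untreated cells. All 3 treated cultures lay just above the detection floor and the groups did not overlap. The log2 difference was -3.01 ± 0.08 (SE, n = 3 per group), or 8.05-fold lower (95% confidence interval 7.14 to 9.08).

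The other Cp probe (ILMN_3083163) read 5.63, 6.06 and 5.99 log2 in DAC/TSA cells, against 7.67, 8.10 and 8.20 log2 in untreated cells. It was not detected on DAC/TSA array 1. The difference was -2.10 ± 0.15, or 4.27-fold lower (3.38 to 5.40), so that both probes ran the same way with no overlap between groups. With normexp background correction the differences of the brighter and the dimmer probe were -3.66 and -2.73. Apoa2 was the only one of 8 hepatocyte markers with a named kept probe, at linear signals of 67.5 to 79.7 in DAC/TSA cells and 57.8 to 68.1 in untreated cells, and Alb and Ttr had none. The part of the lower mesenchymal marker sum in the Cp difference was not tested.

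**Figure D1:**
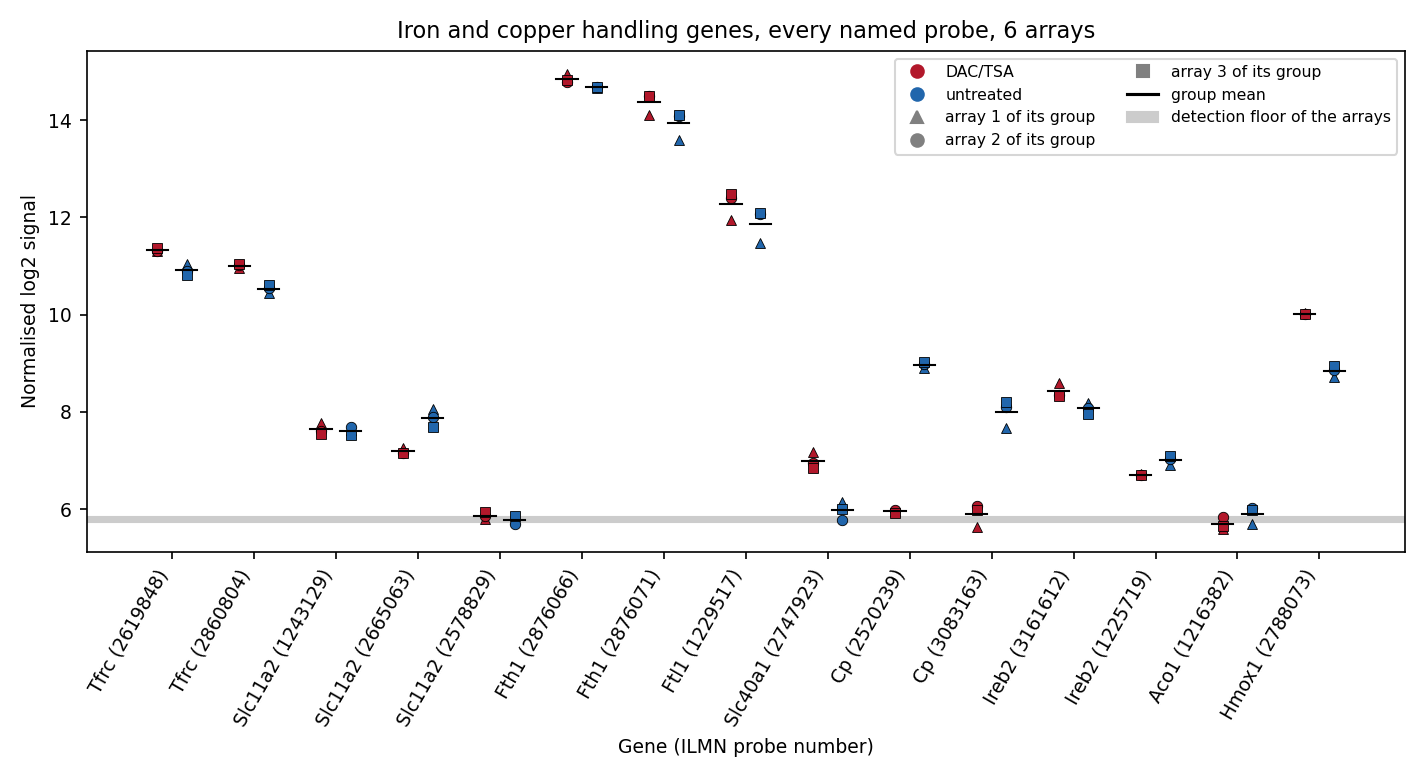
Normalised log2 signal of the 15 probes of the 9 genes on 6 arrays, DAC/TSA (red) left of untreated (blue), with a symbol for each array number, a bar for the group mean and a grey band for the detection floor (5.73 to 5.84). Both Cp probes lie near the band in treated cells, Hmox1 and Slc40a1 sit higher in treated cells, and the arrays numbered 1 (triangles) lie low in both groups for Ftl1 and the dimmer Fth1 probe.

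The profile of Cp was set against those of 7790 genes detected on all 6 arrays, by the root mean square distance between log2 values centred on the mean of each gene. The nearest was Serpinf1, a secreted serpin, at a distance of 0.10. Itgbl1, an integrin beta-like protein, followed at 0.18 and the smooth muscle actin Acta2, itself on the mesenchymal marker list, at 0.19. Prl2c2, of the prolactin family, and Chrna1, a subunit of the muscle acetylcholine receptor, both stood at 0.25. The step between the groups makes up most of the Cp profile, so genes chosen by this distance share that step through the choice itself. Their log2 differences were -2.97 for Serpinf1, -3.02 for Itgbl1, -2.70 for Acta2, -2.52 for Prl2c2 and -2.64 for Chrna1. None of the 5 is on the iron, heme or copper lists.

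**Figure D2:**
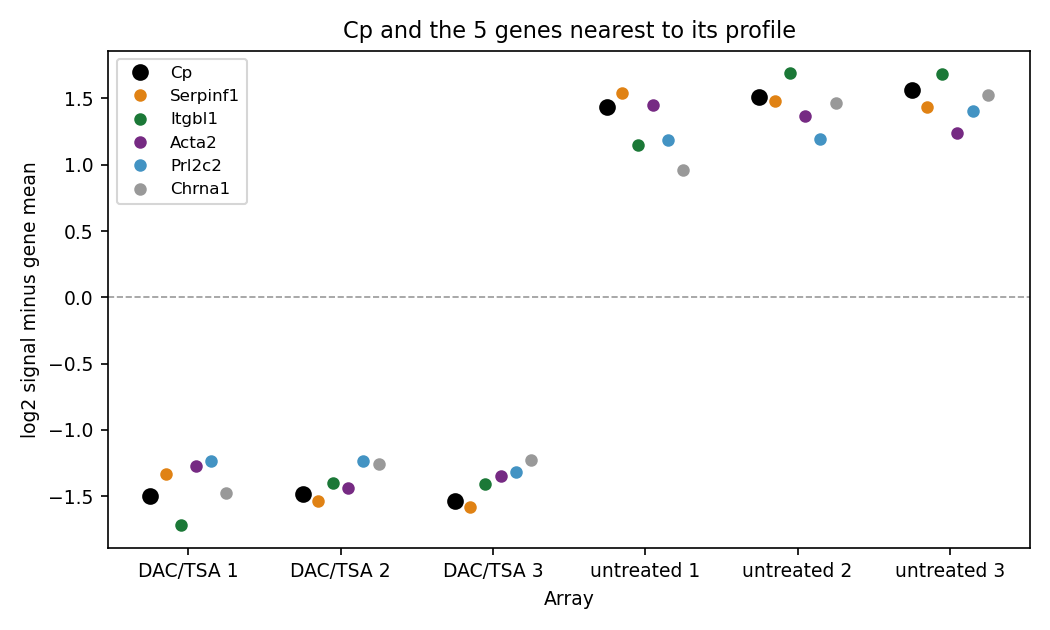
Log2 signal minus the mean of the gene on the 3 DAC/TSA (left) and 3 untreated (right) arrays for Cp (large black points) and the 5 genes nearest to its profile. All 6 genes lie below 0 on each DAC/TSA array and above 0 on each untreated array, which follows from their choice by distance to Cp.

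Slc40a1, which encodes ferroportin, the iron exporter that works with ferroxidases at the cell surface, was higher in treated cells. Its probe read 7.18, 6.95 and 6.85 log2 in DAC/TSA cells, against 6.15, 5.78 and 6.00 log2 in untreated cells. The groups did not overlap, and the untreated level was so close to the floor that 1 of its 3 arrays did not detect the probe. The difference was 1.02 ± 0.12, or 2.02-fold (1.69 to 2.43), and 1.43 log2 with normexp. Thus the RNA signal of the exporter was higher and that of the ferroxidase Cp lower in the same cultures. Protein was not measured on these arrays.

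Tfrc, the transferrin receptor that brings iron into the cell, was higher in treated cells by both of its probes. The brighter (ILMN_2619848) read 11.32, 11.31 and 11.37 log2 in DAC/TSA cells, against 11.05, 10.90 and 10.82 log2 in untreated cells. The other (ILMN_2860804) read 10.95, 11.03 and 11.03 log2 in DAC/TSA cells, against 10.45, 10.54 and 10.60 log2 in untreated cells. Neither probe overlapped between groups. The differences were 0.41 ± 0.09, or 1.33-fold (1.16 to 1.52), for the brighter and 0.47 ± 0.08 for the other. When arrays were scaled to a common median instead, the brighter probe differed by 0.48, and without single arrays by 0.36 to 0.47.

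Slc11a2, divalent metal transporter 1, gave different readings by probe. The probe drawn from its RefSeq transcript (ILMN_2665063) read 7.27, 7.16 and 7.16 log2 in DAC/TSA cells, against 8.06, 7.89 and 7.70 log2 in untreated cells. This is a difference of -0.69 ± 0.10, or 1.61-fold lower, with no overlap. The brightest probe (ILMN_1243129), designed on a cDNA clone, read 7.76, 7.61 and 7.54 log2 in DAC/TSA cells, against 7.62, 7.69 and 7.52 log2 in untreated cells. Its groups overlapped, at a difference of 0.03 ± 0.09 (-0.17 to 0.23). A further clone-based probe (ILMN_2578829) read 5.81, 5.85 and 5.95 log2 in DAC/TSA cells, against 5.80, 5.70 and 5.86 log2 in untreated cells, which is at the detection floor in both (0.08 ± 0.08). The mean over the 3 probes was -0.19, so a level of Slc11a2 cannot be given without naming the probe.

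Ferritin, the storage shell for iron made of heavy (Fth1) and light (Ftl1) chains, was read by 3 probes, all with small positive differences. The brighter Fth1 probe (ILMN_2876066) read 14.96, 14.77 and 14.82 log2 in DAC/TSA cells, against 14.66, 14.68 and 14.68 log2 in untreated cells. The difference was 0.18 ± 0.08 (-0.01 to 0.36) without overlap, close to the top of the scale. The other Fth1 probe (ILMN_2876071) read 14.10, 14.49 and 14.49 log2 in DAC/TSA cells, against 13.60, 14.09 and 14.10 log2 in untreated cells.

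Ftl1 read 11.94, 12.40 and 12.48 log2 in DAC/TSA cells, against 11.47, 12.07 and 12.08 log2 in untreated cells. For Ftl1 and the dimmer Fth1 probe array 1 of each group was the lowest, and the groups overlapped through it. The differences were 0.40 ± 0.18 for Ftl1 and 0.43 ± 0.15 for that Fth1 probe. Taken by array number, the differences were 0.47, 0.34 and 0.40 for Ftl1 and 0.50, 0.40 and 0.39 for Fth1, all of them positive. Without untreated array 1 the differences were 0.20 for Ftl1 and 0.26 for that Fth1 probe. Ferritin genes have many near-identical pseudogene copies, so that their probes may share signal with them.

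Ireb2, which encodes IRP2, and Aco1, which encodes IRP1 and serves as cytosolic aconitase when it holds an iron-sulphur cluster, gave no common direction. The brighter Ireb2 probe (ILMN_3161612) read 8.59, 8.34 and 8.33 log2 in DAC/TSA cells, against 8.19, 8.08 and 7.96 log2 in untreated cells. The other (ILMN_1225719) read 6.72, 6.70 and 6.71 log2 in DAC/TSA cells, against 6.90, 7.02 and 7.10 log2 in untreated cells. Neither overlapped, and they ran opposite ways, at 0.35 ± 0.10 and -0.30 ± 0.08, so that their mean was 0.024. Without single arrays the brighter ranged from 0.26 to 0.40 and the other from -0.25 to -0.35, and with median scaling they stood at 0.43 and -0.20. Aco1 read 5.59, 5.83 and 5.66 log2 in DAC/TSA cells, against 5.70, 6.02 and 5.98 log2 in untreated cells. It was detected on 1 DAC/TSA array and 2 untreated arrays, and its difference of -0.21 ± 0.11 (-0.44 to 0.03) lay at the detection floor.

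Hmox1, the inducible heme oxygenase that splits heme into biliverdin, carbon monoxide and iron, was clearly higher in treated cells. Its probe read 10.04, 10.02 and 10.00 log2 in DAC/TSA cells, against 8.71, 8.86 and 8.95 log2 in untreated cells. The treated cultures were nearly equal and all lay above the untreated ones. The difference was 1.18 ± 0.09, or 2.26-fold (1.98 to 2.59).

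**Figure D3:**
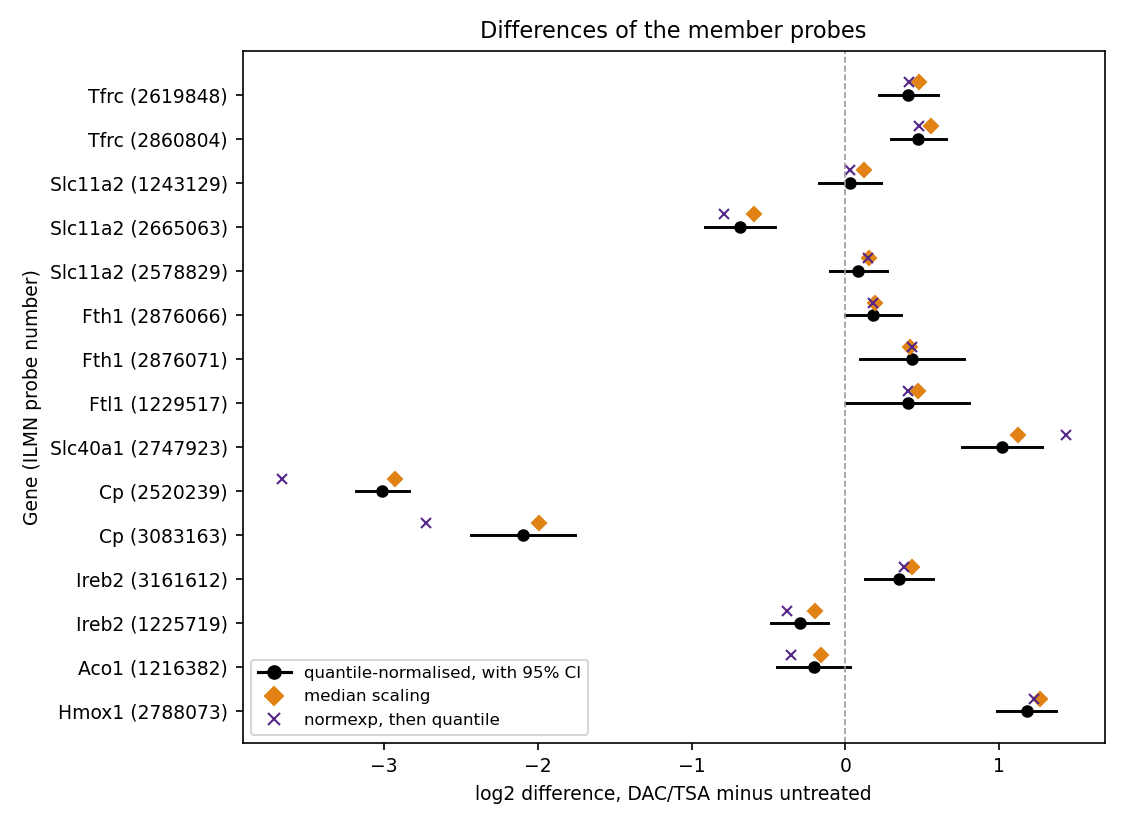
Log2 difference, DAC/TSA minus untreated, for each probe of the 9 genes (black, quantile-normalised, with 95% confidence interval), with median scaling (orange) and normexp correction (purple crosses). The probes of Slc11a2 and of Ireb2 lie on different sides of 0, and Cp and Slc40a1 move outwards with normexp.

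At a false discovery rate of 0.01, the fit placed 4 of the 9 genes (44.4%) past the threshold by their brightest probe, beside 43.9% of all genes on the array. These were Tfrc, Slc40a1 and Hmox1 among the higher and Cp among the lower. With median scaling it placed 3 of the 9 there, without Tfrc, beside 21.7% of all genes. With the array number as a replicate block it placed 6 there, Ftl1 (0.40) and Ireb2 (0.35) being added, beside 56.7% of all genes. The dimmer Fth1 probe (0.43) and the other Ireb2 probe (-0.30) were likewise past the threshold with the block and not in the main fit. That Ireb2 probe also passed with the stricter detection filter (-0.30) and without untreated array 1 (-0.35). Tfrc was not past it without untreated array 2 (0.40) or 3 (0.36) or DAC/TSA array 2 (0.42) or 3 (0.39). The groups did not overlap for 6 of the 9, against 63.9% of all genes. By probe, 7 of 15 passed, against 38.7% of all probes, and 10 of 15 did not overlap, against 59.0%. The median difference of the 9 genes was 0.35, and that of all genes 0.01. The 0.35 is the value of the brighter Ireb2 probe, whose other probe ran the opposite way (-0.30).

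Other genes of iron, heme and copper handling were taken from 11 lists of 131 genes, of which 83 had a named kept probe. Higher levels were called for 25 and lower levels for 15, while 43 were not past the threshold, which makes 48.2% past the threshold beside 43.9% of all genes. Their median was 0.20. The counts of each list below are to be read beside the shares of all genes, 22.5% higher and 21.4% lower. Whether any list differed from all genes was not tested, and lists of 2 or 3 measured genes are too short to compare.

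Of 9 measured genes of iron uptake, 5 were higher, 1 was lower and 3 were not past the threshold, with a median of 0.54, where 22.5% of all genes were higher and 21.4% lower. Slc11a1, the divalent metal transporter of phagocyte lysosomes and a relative of Slc11a2, rose most. It read 9.96, 9.86 and 9.91 log2 in DAC/TSA cells, against 8.03, 7.97 and 7.83 log2 in untreated cells (1.97 ± 0.09, adjusted p = 7.06e-08), and its 3 other probes rose as well. Lcn2, a lipocalin that binds siderophores, was undetected in untreated cells and at least 2.38-fold higher (adjusted p = 1.80e-06). The lysosomal channel Mcoln1 rose too (0.84 ± 0.10, adjusted p = 6.47e-05). The ferritin receptor Scara5 was undetected in treated cells and at least 1.14-fold lower (adjusted p = 0.000415). The metalloreductase Steap2 (0.26 ± 0.08, adjusted p = 0.0249) and the transferrin receptor partner Hfe (0.10 ± 0.10, adjusted p = 0.441) did not pass. Of 11 immune markers 5 had a named kept probe, 3 of them higher and 2 lower. Of these 5, 3 were undetected in untreated cells and 1 in DAC/TSA cells. Their sums were 474 to 497 in DAC/TSA cells and 476 to 490 in untreated cells. Ptprc, Cd68 and Adgre1 had no named kept probe, and the part of such cells in the uptake genes was not tested.

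For storage, 1 of 3 measured genes was higher and 2 did not pass, with a median of 0.20. Ncoa4, the receptor that delivers ferritin to autophagy, rose (0.67 ± 0.11, adjusted p = 0.000396). The iron chaperones Pcbp1 (0.20 ± 0.09, adjusted p = 0.0865) and Pcbp2 (-0.28 ± 0.08, adjusted p = 0.0137) did not pass, and Pcbp2 did with the replicate block (-0.28). For export and its hormone both measured genes were higher (median 0.48), and Heph and Hamp had no named kept probe. Hamp2, a hepcidin paralogue, was undetected in untreated cells and at least 1.18-fold higher (adjusted p = 0.000274). Neo1, a co-receptor in hepcidin control, rose by its brightest probe (0.42 ± 0.08, adjusted p = 0.00164), while its 3 others stood at -0.02, -0.25 and -0.13 and the mean of all 4 was 0.0053. With median scaling Neo1 stood at 0.50 without passing. Of 3 measured genes of IRP control 0 passed by limma (median 0.10), nor did any have an unadjusted p below 0.05, among them Fbxl5, the iron-sensing ligase subunit that targets IRP2 (0.08 ± 0.16, adjusted p = 0.699). Fbxl5 was detected on all 6 arrays. The other 2 were detected on no untreated array, so their small differences do not show an equal level.

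Heme synthesis had 4 of 9 measured genes higher, 2 lower and 3 not passing, with a median of 0.12. This put 66.7% past the threshold, beside 43.9% of all genes. Alas1, the first and rate-limiting enzyme outside red cells, rose most. It read 10.83, 11.15 and 11.13 log2 in DAC/TSA cells, against 9.62, 9.97 and 10.06 log2 in untreated cells (1.15 ± 0.13, adjusted p = 3.89e-05). Uros (0.95 ± 0.11, adjusted p = 4.67e-05) and Alad (0.48 ± 0.08, adjusted p = 0.000876), later enzymes of the same path, also rose. Ppox, which acts near its end (-0.60 ± 0.10, adjusted p = 0.000699), and the outer mitochondrial membrane protein Tspo (-0.54 ± 0.08, adjusted p = 0.000235) fell. With median scaling Alad (0.56), Ppox (-0.52) and Tspo (-0.48) kept differences of similar size but did not pass. Slc25a38, the mitochondrial glycine carrier (-0.05 ± 0.09), and Abcb6 (-0.08 ± 0.11) did not pass. Among erythroid markers 1 of 7, Hba-a1, had a named kept probe. Its linear signals were 70.1 to 80.8 in DAC/TSA cells and 38.5 to 45.1 in untreated cells, where it was undetected. Its part in the heme genes was not tested.

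Of 10 measured genes of heme breakdown and transport, 3 were higher, 2 lower and 5 not past the threshold, with a median of 0.18. Among all genes 22.5% were higher and 21.4% lower. Both biliverdin reductases, Blvrb (0.55 ± 0.08, adjusted p = 0.000219) and Blvra (0.48 ± 0.08, adjusted p = 0.000669), which act after Hmox1, rose. With median scaling their differences were as large, at 0.61 and 0.56, but not past the threshold. Flvcr2, a heme-related transporter, rose (0.38 ± 0.09, adjusted p = 0.00553), and its call was lost without untreated array 2 (0.36) or 3 (0.36) or DAC/TSA array 1 (0.32) or 3 (0.39). The heme-binding protein Hebp1 (-1.12 ± 0.09, adjusted p = 4.07e-06) and hemopexin, the plasma heme scavenger Hpx (-0.69 ± 0.11, adjusted p = 0.000366), fell. Pgrmc1 (0.01 ± 0.20) and the heme transporter Slc48a1 (-0.12 ± 0.09) did not pass.

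Among regulators of Hmox1 and metal-responsive genes, limma called 2 of 7 measured genes lower, where 21.4% of all genes were lower. The other 5 did not pass, and the median was -0.26. Bach1, the heme-sensing repressor of Hmox1, lay between 6.77 and 7.19 log2 in DAC/TSA cells, against 7.58 to 7.86 log2 in untreated cells (-0.70 ± 0.12, adjusted p = 0.000698). Mafg, a small Maf protein that pairs with Bach1 and with Nrf2, read 9.04, 9.05 and 9.02 log2 in DAC/TSA cells, against 10.08, 10.05 and 10.00 log2 in untreated cells (-1.01 ± 0.08, adjusted p = 2.71e-06). Both fell in the cultures in which Hmox1 was higher, and a link between these differences was not tested. Nfe2l2, which encodes the activator Nrf2 (0.20 ± 0.10, adjusted p = 0.123), and Hif1a (-0.07 ± 0.13, adjusted p = 0.652) did not pass.

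Mitochondrial iron and iron-sulphur assembly had 5 of 19 measured genes higher, 2 lower and 12 not passing, with a median of 0.23. The share past the threshold, 36.8%, was below the 43.9% of all genes. Ciapin1, of the cytosolic assembly machinery (0.86 ± 0.09, adjusted p = 2.63e-05), Cisd1, an iron-sulphur protein of the outer membrane (0.69 ± 0.10, adjusted p = 0.00027), and the scaffold Iscu (0.61 ± 0.08, adjusted p = 0.000158) rose. Slc25a37, or mitoferrin 1, which carries iron into mitochondria, fell by its brightest probe (-1.07 ± 0.09, adjusted p = 5.61e-06), whereas its other probe stood at 0.22. Abcb8, a mitochondrial transporter, fell (-0.51 ± 0.09, adjusted p = 0.000876), and 1 of its 4 probes stood at 0.12. With median scaling Cisd1 stood at 0.78 and Abcb8 at -0.41, and neither passed. Hspa9 (-0.01 ± 0.08) and Iba57 (0.02 ± 0.08) did not pass.

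Copper transport and its chaperones had 2 of 11 measured genes higher, 2 lower and 7 not passing, with a median of 0.21. The share past the threshold, 36.4%, was again below the 43.9% of all genes. The copper importer Slc31a1 read 9.08, 8.97 and 8.94 log2 in DAC/TSA cells, against 9.65, 9.71 and 9.78 log2 in untreated cells (-0.72 ± 0.08, adjusted p = 4.64e-05). Commd1, which acts in copper export, fell (-0.42 ± 0.11, adjusted p = 0.00799). Cox19, an assembly factor of cytochrome c oxidase (0.60 ± 0.10, adjusted p = 0.000548), and the chaperone Atox1 (0.37 ± 0.10, adjusted p = 0.00888) rose. With median scaling Slc31a1 (-0.65), Commd1 (-0.34) and Atox1 (0.44) did not pass. Nor did Commd1 (-0.43) and Atox1 (0.37) with normexp or Commd1 with the mean of its probes (-0.30). Leaving out single arrays ended the calls of Commd1 (all but untreated array 1, -0.36 to -0.48) and Atox1 (untreated array 2 or 3, DAC/TSA array 1 or 3, 0.32 to 0.36). Cutc (-0.01 ± 0.10) and Sco1 (0.21 ± 0.10) did not pass.

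Among the genes of all lists the copper enzymes held the steepest decrease, that of Lox. Of their 8 measured genes 2 were higher, 4 lower and 2 not passing, with a median of -0.29. By comparison, 22.5% of all genes were higher and 21.4% lower. Lox, the copper amine oxidase that cross-links collagen and elastin, read 10.05, 9.73 and 9.90 log2 in DAC/TSA cells, against 12.17, 12.11 and 12.08 log2 in untreated cells (-2.23 ± 0.10, adjusted p = 7.06e-08). This was 4.68-fold lower. Its relative Loxl1 (-1.31 ± 0.08, adjusted p = 4.78e-07) and the amine oxidase Aoc3 (-0.88 ± 0.09, adjusted p = 2.44e-05) also fell, while Loxl4, another relative, rose (0.73 ± 0.08, adjusted p = 4.36e-05). The lower mesenchymal marker sum moved with Lox and Loxl1, and its part was not tested. Cox4i1, a cytochrome c oxidase subunit, rose (0.41 ± 0.10, adjusted p = 0.00608), a call that ended under median scaling (0.49), under normexp (0.41), and when untreated array 1 or 3 or DAC/TSA array 2 or 3 was dropped (0.35 to 0.40). Sod1, the copper-zinc superoxide dismutase, did not pass (0.25 ± 0.10, adjusted p = 0.0559) but did with the replicate block (0.25). Its other probe, near the detection floor, was detected on 2 untreated arrays and on no DAC/TSA array and ran the other way (-0.28). Of 2 measured metallothioneins (median 0.32), Mt2 rose (0.60 ± 0.14, adjusted p = 0.00416) and Mt1 did not pass (0.05 ± 0.09). The Mt2 call ended when medians were scaled (0.71), or when untreated array 2 or 3 or DAC/TSA array 2 or 3 was dropped (0.51 to 0.56). Of 5 endothelial markers only Egfl7 had a named kept probe, at 983 to 1197 in DAC/TSA cells and 371 to 422 in untreated cells.

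**Figure D4:**
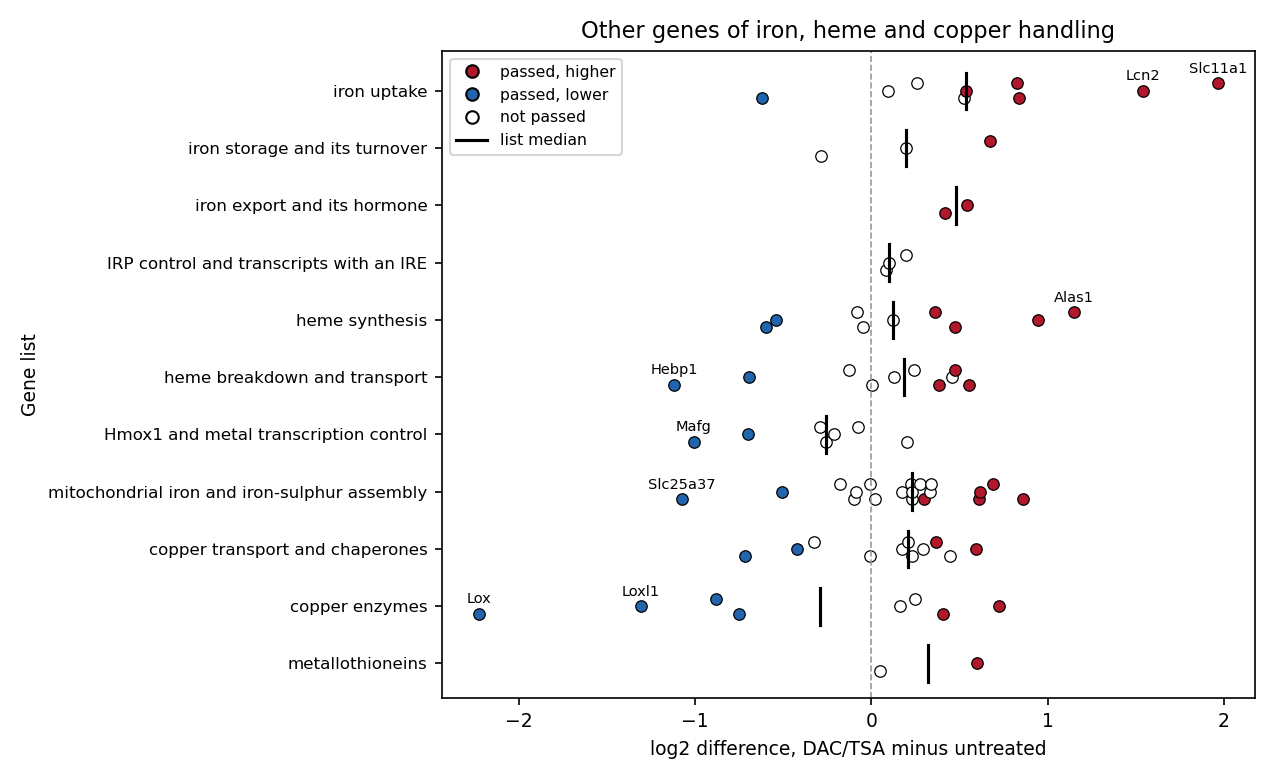
Log2 difference, DAC/TSA minus untreated, of the 83 measured genes in 11 lists, red where higher and blue where lower at a false discovery rate of 0.01, open where not passed, with a bar for the median of the list. Slc11a1, Lcn2 and Alas1 lie farthest to the right, Lox farthest to the left at -2.23.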

How the data were processed

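Total RNA of 3 DAC/TSA and 3 untreated TC-1/A9 cultures was hybridised by the authors to Illumina Mouse WG-6 arrays and exported from BeadStudio as linear intensity per probe, not normalised, with a detection p-value per probe and array. The authors also deposited a log2 table, quantile-normalised with lumi and limma (limma is named in the submitters' processing notes). Both tables were used, the second as an alternative. No genome build is given in the sources used here. Signals were taken to log2 and quantile-normalised without background correction (R 4.3.3, limma 3.58.1). Probes were kept if any array gave them a detection p-value no higher than 0.01 (17445 of 45281). Groups were compared with lmFit and eBayes over all kept probes without a block, with Benjamini-Hochberg adjustment and a threshold of 0.01. Replicates are separate samples by the labels alone, so p-values measure the spread between these cultures.

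Symbols came from the platform annotation, updated by Entrez ID to RefSeq GRCm38.p6. Of the kept probes 13943 had 1 gene, 7 had several and 3495 had none named here. The brightest kept probe stood for its gene. A gene undetected on all arrays of a group has only a bound, against the lowest detected signal of those arrays. The 9 genes and the lists were chosen with earlier results of these data known. Named genes were, per list, up to 3 passing genes with the largest difference in each direction and up to 2 nearest 0, and for Cp the 5 nearest profiles. Deviations from the group mean correlated between arrays of the same number (r = 0.63, 0.24 and 0.36). Between DAC/TSA array 3 and untreated array 2 r was 0.37, and between DAC/TSA array 2 and untreated array 3 it was 0.38. Only the arrays numbered 1 were thus set apart as a pair. The numbers were used as a block in an alternative fit and not in the main one. The number of arrays limits the precision. The fit was tested on simulated data with independent noise for each array. Such data cannot judge calls that depend on deviations shared between arrays. Alternatives were median scaling, normexp, no or a stricter detection filter, the replicate block, the deposited log2 values, the mean of the probes, and leaving out arrays.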

Additional observations from a re-analysis of the deposited data

How the results depend on the processing

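The limits are 3 cultures per group, 1 cell line, signals near the detection floor for Cp in treated cells, Slc40a1 in untreated cells and Aco1 in both, and 1 or few probes per gene. The number of genes past the threshold over the whole array was 4036 (2072 higher, 1964 lower). It was 1995 (1219 higher, 776 lower) with median scaling, 3037 to 4253 (1575 to 2198 higher, 1462 to 2055 lower) without single arrays, and 5212 with the replicate block. Median scaling moved the median difference of all genes to 0.09, against 0.01, and the share of higher genes among those past the threshold to 61.1%, against 51.3%. Of the 40 pathway genes past the threshold (25 higher, 15 lower), 24 passed with median scaling (14 higher, 10 lower), all of them among the 40, and 33 to 43 passed without single arrays (19 to 25 higher, 14 to 18 lower). With the replicate block all 40 passed and 13 more did. Among the 9 genes the number past the threshold was 4, 3 to 5 without single arrays and 3 to 6 under the other settings. Tfrc differed by 0.48 with median scaling and by 0.36 to 0.47 without single arrays, and was not past the threshold with median scaling, without untreated array 2 or 3, or without DAC/TSA array 2 or 3. With the replicate block Ftl1 (0.40), Ireb2 (0.35), the other Ireb2 probe, the dimmer Fth1 probe, Pcbp2 and Sod1 passed, and the block changed no other call among the named genes. Leaving out the arrays numbered 1 in both groups, chosen after seeing the data, gave 0.37 for Ftl1 and 0.32 for Ireb2, both past the threshold, as was Ireb2 without untreated array 1 (0.40). Without single arrays Ftl1 ranged from 0.20 to 0.57 and Ireb2 from 0.26 to 0.40. Slc11a2 changed sign to -0.028 without the arrays numbered 1 and to -0.19 with the mean of its probes, and ranged from -0.034 to 0.077 without single arrays. Genes near 0 changed sign as well: with median scaling Slc25a38 (0.023), Abcb6 (0.021), Hif1a (0.015) and Cutc (0.084), without the arrays numbered 1 Hspa9 (0.046) and Cutc (0.016), and with the mean of probes Sod1 (-0.015), one of whose probes was undetected in DAC/TSA cells. Without single arrays the ranges that crossed 0 were -0.075 to 0.25 for Fbxl5, -0.086 to 0.0094 for Slc25a38, -0.17 to 0.0090 for Abcb6, -0.204 to 0.21 for Pgrmc1, -0.21 to 0.0042 for Hif1a, -0.039 to 0.043 for Hspa9, -0.018 to 0.055 for Iba57, -0.075 to 0.073 for Cutc and -0.022 to 0.11 for Mt1. The cause of these shifts was not tested. Over the settings other than single arrays left out, Cp ranged from -3.66 to -2.55, Slc40a1 from 1.01 to 1.43 and Hmox1 from 1.11 to 1.26, as a description of values that chose the set.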
